A study of Mus musculus with 9 samples.

Results

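The genes of the actin filament and its transcription factor were followed in 9 RNA sequencing libraries of B16 cells, a mouse melanoma line grown on stretchable PDMS film. The 10 genes were taken by symbol out of 22972 gene names in the expression files. They are the cytoplasmic actins Actb and Actg1, the tropomyosins Tpm1, Tpm2, Tpm3 and Tpm4, the calponin family genes Cnn2, Cnn3 and Tagln2, and Srf, the serum response factor. All cells were wild type B16 cells collected on day 3. The CTL group (3 libraries) was the control, the MS group (3 libraries) received cyclic straining for 72 h, and the blebbistatin group, Blebb. (3 libraries), received 100 ng/mL blebbistatin, an inhibitor of non-muscle myosin II, for 72 h. The label of the last group gives blebbistatin alone, whereas the study describes it as straining together with blebbistatin, and which of these holds was not tested. The labels call the 3 replicates of a group parallel experiments and do not say whether they came from separate cultures, so the p-values measure the spread between these samples, which may be technical.

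Actin filaments are built from actin monomers, and the cytoplasmic β- and γ-actins, encoded by Actb and Actg1, are the main forms outside muscle. Tropomyosins lie along the filament and set which proteins, myosin among them, can act on it, while calponins and transgelins bind along its side. SRF binds a DNA element named the CArG box in the promoters of many cytoskeletal genes. Its cofactors of the MRTF family are held by free actin monomers and released when monomers are used up in filaments, whereas cofactors of the ternary complex factor family (Elk1, Elk3 and Elk4) respond to MAP kinase signaling.

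The CArG box was looked for in the promoters of the 10 genes because it is the DNA element through which SRF acts. It was searched on both strands as 10 bases, with CC at the start, GG at the end and 6 A or T bases between them, a form that reads as the same class on either strand. RefSeq promoters of build GRCm38.p6 ran from 250 bases before to 50 bases after a gene start. They were available for 9 of the 10 genes, in 10 promoters, of which Tpm3 has more than 1. None was available for Actb, so its promoter was not searched. A match was found in the promoters of 3 genes, Cnn2, Actg1 and Srf. Among 32851 promoters of all genes, 535 (1.63%) held a match, and counted by gene it was 488 of 27025 (1.81%). Each sequence is shown 5′ to 3′ on the strand of the gene, with the CArG box in capitals.
Cnn2, chr10:79988519-79988578, plus strand: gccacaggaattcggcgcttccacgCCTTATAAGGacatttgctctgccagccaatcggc
Actg1, chr11:120348551-120348610, minus strand: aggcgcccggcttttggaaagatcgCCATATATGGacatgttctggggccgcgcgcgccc
Srf, chr17:46556190-46556269, minus strand: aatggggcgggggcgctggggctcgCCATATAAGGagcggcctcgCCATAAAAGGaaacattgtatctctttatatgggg
The box lay 56 to 47 bases before the start of Cnn2 and 90 to 81 bases before the start of Actg1. The Srf promoter held 2 boxes, at 82 to 73 and at 62 to 53 bases before the start. No annotated exon or UTR fell in these windows. A match is a description of the letters, and its absence in a window says nothing about whether SRF acts on the gene.

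Expression was given as FPKM, a measure corrected for gene length and library size, so that levels of different genes can be set side by side. Of the 10 genes, 8 reached 1 FPKM on average and entered the test across genes, while Tpm2 and Tagln2 did not. Actg1 had the highest mean, 1166 FPKM (range 1014 to 1467), and ranked between 38 and 59 among all genes of a library. Actb followed with a mean of 791 FPKM (range 376 to 1087), and its rank moved between 51 and 196. Next came Tpm3 (mean 181 FPKM), Tpm1 (147 FPKM), Cnn3 (115 FPKM), Tpm4 (35.2 FPKM), Cnn2 (25.03 FPKM) and Srf (19.4 FPKM). In this order the ranges over the 9 libraries overlapped between Actg1 and Actb, Tpm3 and Tpm1, Tpm1 and Cnn3, Tpm4 and Cnn2, and Cnn2 and Srf. They did not overlap between Actb and Tpm3, between Cnn3 and Tpm4, or between Srf and Tagln2. The lowest levels were those of Tagln2 (mean 0.771 FPKM) and Tpm2, which was listed at 0 in 8 libraries and at 0.0392 FPKM in CTL replicate 1.

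Before the groups are compared, 3 libraries have to be named. CTL replicate 1, MS replicate 3 and Blebb. replicate 2 stood apart from the other 6 over many genes in an earlier analysis of these data. They came from 3 different groups. They did not stand equally far apart on the first principal component, the main axis of difference between libraries, which held 70.4% of the variance. CTL replicate 1 was at -42.1 and Blebb. replicate 2 at -43.9 on it. MS replicate 3 was at -10.0, close to Blebb. replicate 1 at -7.29, and the remaining libraries were at 6.07 to 35.8. In these libraries Trib3, a target of the integrated stress response, was at 103 to 183 FPKM against 19.4 to 41.7 FPKM in the other 6, and the summed level of 10 genes of that response was 1456 to 1781 FPKM against 943 to 1362 FPKM. All 10 were tested, and 6 of them (Atf4, Ddit3, Trib3, Asns, Chac1 and Sesn2) had their 3 highest values in the 3 libraries. The others did not. Psat1, Phgdh and Shmt2 were highest in Blebb. replicate 1, and Slc7a11 was at 1.60 to 3.82 FPKM in the 3 libraries and 3.04 to 11.9 FPKM in the other 6. The libraries also differed in how a gene's deviation from its mean followed its GC content, with a correlation across genes from -0.64 in MS replicate 1 to 0.55 in Blebb. replicate 1. Genes are not independent replicates, and the part of either in the results below was not tested. Between 9529 and 10388 genes per library reached 1 FPKM, and the depth is unknown. The 7 melanocyte markers summed to 7444 to 12930 FPKM and were all tested. The pigment genes Mlana, Pmel, Tyrp1 and Dct were at 970 FPKM or more in every library, while Sox10 was at 210 to 313 FPKM, Tyr at 40.2 to 80.5 FPKM and Mitf, the melanocyte transcription factor, at 8.51 to 36.2 FPKM. Pmel, Tyr and Dct (3 of 7, or 42.9%) had their 3 highest values in the 3 libraries. The summed level was 5.58 to 10.4 FPKM for 8 smooth muscle markers, most of it Des at 4.66 to 9.15 FPKM, with Acta2 listed at 0. It was 0.455 to 6.23 FPKM for 8 skeletal and cardiac muscle markers, most of it Tnnt2, which had its 3 lowest values in the 3 libraries, with Actc1 and Myl1 listed at 0. It was 0.896 to 1.23 FPKM for 8 fibroblast markers, with Dcn, Lum and Thy1 listed at 0, 2.13 to 4.32 FPKM for 6 macrophage markers, with Ptprc listed at 0, and at most 0.0363 FPKM for 6 keratinocyte markers, with Krt1, Krt10 and Trp63 listed at 0.

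Among the actins, Actb split by library while Actg1 did not. Actb (ENSMUSG00000029580.14, GRCm38 chr5:142903115-142906754, minus strand) was at 376, 966 and 1011 FPKM in CTL, at 847, 942 and 476 FPKM in MS, and at 1087, 499 and 915 FPKM in Blebb., in the order of replicates 1 to 3. Each group had 1 low library, and the low libraries were CTL replicate 1, MS replicate 3 and Blebb. replicate 2. On average CTL stood at 784 ± 354 FPKM, MS at 755 ± 246 FPKM and Blebb. at 834 ± 302 FPKM (SD, n = 3). The groups accounted for 1.47% of the variance of Actb over the 9 libraries on the log2(FPKM + 1) scale. Its SD on that scale was larger than that of 92.3% of the genes tested. Outside the 3 libraries the level of Actb kept within 847 to 1087 FPKM, a ratio of 1.28.

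Actg1 (ENSMUSG00000062825.15, GRCm38 chr11:120345690-120348542, minus strand) was at 1132, 1166 and 1257 FPKM in CTL, at 1127, 1014 and 1077 FPKM in MS, and at 1467, 1104 and 1150 FPKM in Blebb. In the 3 libraries with low Actb it was at 1077 to 1132 FPKM, inside the range of the other 6. Its SD on the log2(FPKM + 1) scale was larger than that of 21.4% of the genes tested, although it encodes a protein nearly identical to that of Actb. Of all stretches of 50 bases in its longest transcript, 56.7% also occurred in transcripts of 22 other genes, mostly processed copies such as Actg-ps1, and for Actb the share was 14.2%. How the authors' counting divided reads between such copies is not known, so the levels of both actins are uncertain, by an amount that was not measured.

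**Figure D1:**
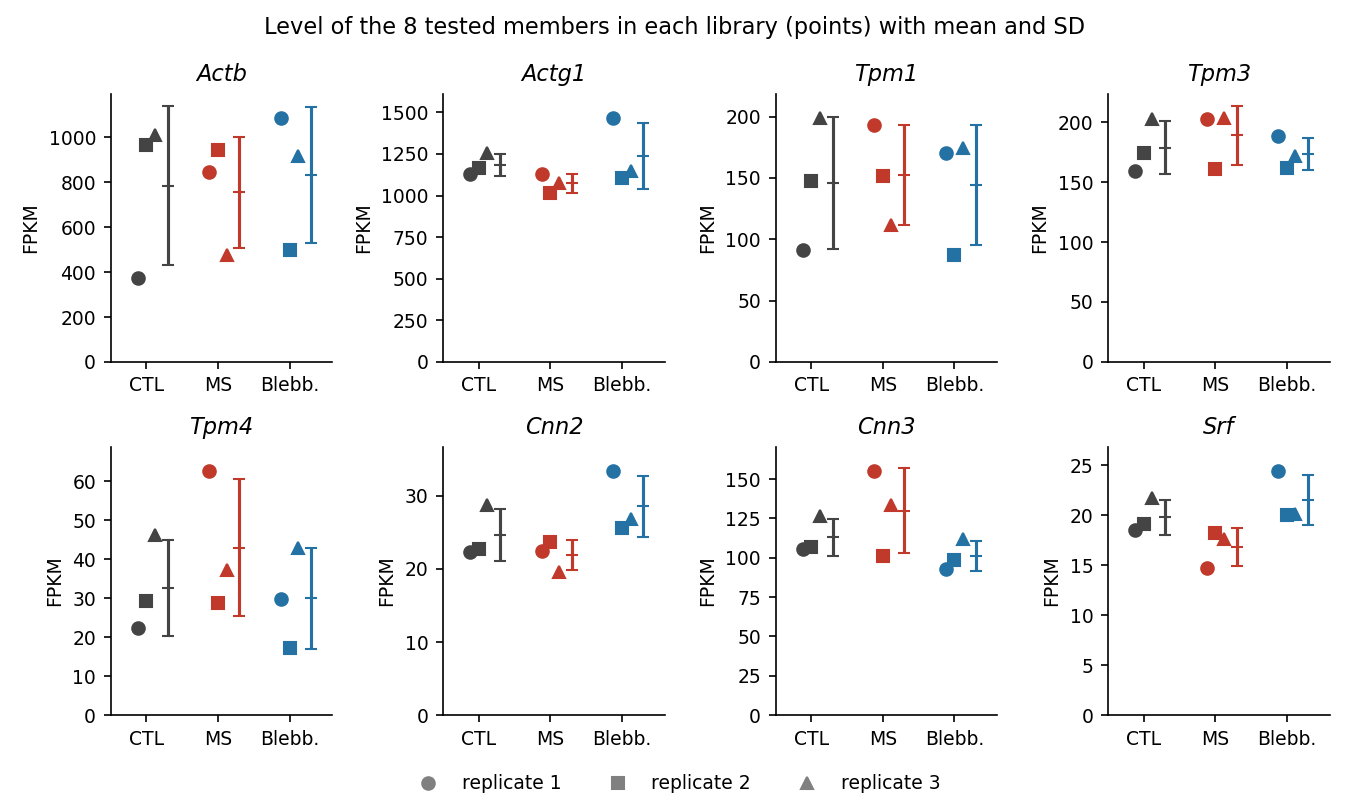
Level in FPKM (vertical axes, from 0) of the 8 genes that entered the test, in each library of the groups CTL, MS and Blebb. on the horizontal axes. Symbols mark the replicate number, and the bar beside them gives the mean with the SD (n = 3). In Actb and Tpm1 the lowest points are CTL replicate 1, MS replicate 3 and Blebb. replicate 2, while Actg1 stays between 1014 and 1467 FPKM.

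The share of Actb in the sum of both actins followed the same libraries. It was 24.9%, 45.3% and 44.6% in CTL, 42.9%, 48.2% and 30.6% in MS, and 42.6%, 31.1% and 44.3% in Blebb. In the 3 libraries the share was thus 24.9 to 31.1%, and in the other 6 it was 42.6 to 48.2%. As a result, the group means lay close together, at 38.3 ± 11.6% in CTL, 40.6 ± 8.99% in MS and 39.3 ± 7.16% in Blebb. (SD, n = 3). By the two-sided exact permutation test, p was 0.7 for MS against CTL, 0.9 for Blebb. against MS and 1.0 for Blebb. against CTL, where 0.1 is the smallest value that 3 against 3 libraries allow. Other scalings left the gap between the 3 libraries and the others, but they are a weak check, since a factor common to a library cancels in the share. Actb and Actg1 also have similar GC content (51.15% and 52.56%), so that removal of a GC trend acts on both nearly alike. After removal of each library's GC trend, the share was 25.3 to 31.9% against 42.1 to 48.4%, and with quantile normalization it was 25.7 to 33.0% against 41.7 to 48.3%. Since these 3 libraries were set apart from data that include Actb, the gap is a description and was given no test.

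Of the tropomyosins, Tpm1 was the one whose level split by the same libraries. Tpm1 (ENSMUSG00000032366.15, GRCm38 chr9:67022590-67049406, minus strand) gives rise to both muscle and cytoskeletal forms, which gene-level values do not separate. It was at 91.1, 147 and 199 FPKM in CTL, at 193, 151 and 112 FPKM in MS, and at 170, 87.4 and 174 FPKM in Blebb. The lowest 3 values were again those of CTL replicate 1, MS replicate 3 and Blebb. replicate 2, at 87.4 to 112 FPKM, and the other 6 libraries were at 147 to 199 FPKM. Tpm3 (ENSMUSG00000027940.18, GRCm38 chr3:90072649-90100902, plus strand) was at 160, 174 and 203 FPKM in CTL, at 203, 161 and 204 FPKM in MS, and at 188, 162 and 172 FPKM in Blebb. Its highest value was 1.27 times its lowest, and MS replicate 3 held the highest. In its longest transcript 17.0% of the stretches of 50 bases also occurred in 4 other genes, among them Tpm3-rs7.

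Expressed as shares of the tropomyosin sum, Tpm1 made up 33.4%, 42.0% and 44.4% in CTL, 42.1%, 44.4% and 31.7% in MS, and 43.8%, 32.8% and 44.8% in Blebb. It was thus 31.7 to 33.4% in the 3 libraries and 42.0 to 44.8% in the other 6. Tpm3 took the larger part of the sum where Tpm1 was low, with 57.7 to 60.7% in the 3 libraries and 44.1 to 49.6% in the others. Tpm3 exceeded Tpm1 in 8 of the 9 libraries, and in Blebb. replicate 3 the ratio of Tpm1 to Tpm3 was 1.015. The group means of the Tpm1 share were 39.9 ± 5.81% in CTL, 39.4 ± 6.75% in MS and 40.5 ± 6.66% in Blebb. (SD, n = 3), and the exact permutation p-values for its 3 comparisons lay between 0.6 and 1.0. For Tpm3 the group means were 51.1 ± 6.73%, 49.7 ± 7.08% and 51.1 ± 8.61%, and the exact permutation p was 0.7 or more in each comparison (n = 3).

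**Figure D2:**
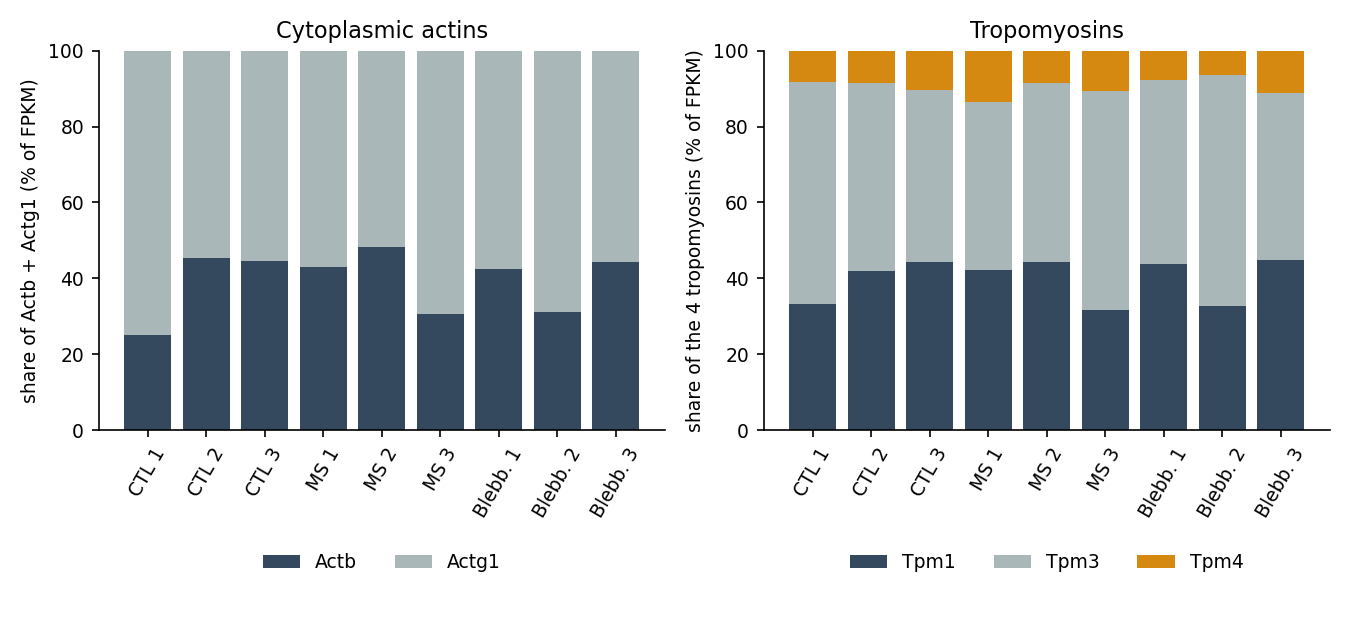
Share of each actin in Actb + Actg1 (left) and of each tropomyosin in the sum of the 4 tropomyosins (right), in percent of FPKM, with 1 bar for each of the 9 libraries. Tpm2 is too low to be drawn. CTL replicate 1, MS replicate 3 and Blebb. replicate 2 have Actb shares of 24.9 to 31.1% and Tpm1 shares of 31.7 to 33.4%, below all the other libraries.

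Tpm4 (ENSMUSG00000031799.9, GRCm38 chr8:72134975-72153142, plus strand), a cytoskeletal tropomyosin, was at 22.3, 29.4 and 46.4 FPKM in CTL, at 62.6, 28.8 and 37.3 FPKM in MS, and at 29.7, 17.1 and 43.0 FPKM in Blebb. The highest library was MS replicate 1, the lowest were Blebb. replicate 2 and CTL replicate 1, and all groups overlapped. It was at 17.1 to 37.3 FPKM in the 3 libraries and at 28.8 to 62.6 FPKM in the other 6, so that these ranges overlapped too. Over the libraries Tpm4 ran with Tpm1, with r = 0.81 over the 9 and 0.85 over the other 6, given as a description. Its share of the tropomyosins was 6.44 to 13.6%, with means of 8.97 ± 1.20% in CTL, 10.9 ± 2.61% in MS and 8.38 ± 2.39% in Blebb. (SD, n = 3). With 45.9% GC, Tpm4 has the lowest GC content of the 10 genes, and it was highest in MS replicate 1, the library with the lowest correlation with GC. The tropomyosin sum was 266 to 459 FPKM and the actin sum 1507 to 2554 FPKM, so that actin stood at 4.30 to 6.58 times tropomyosin.

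The plot of the shares against Trib3 puts the stress gene beside the isotypes. Both shares were lowest in the 3 libraries with the most Trib3, and the part of the stress genes in this was not tested. Over 5 lists of the actin system, which hold targets of SRF and other genes of the actin machinery, 9 of 57 genes tested (15.8%) had their 3 lowest values in these libraries, beside 16.1% of all genes tested. Another 5 (8.77%), namely Gsn, Itga5, Arpc5l, Lcp1 and Tmod1, had their 3 highest values there, beside 15.8% of all genes. The 9 low genes were Ccn1, Ccn2, Smtn, Pfn1, Cfl1, Capzb, Arpc1b, Actn1 and Actn4. Cfl1, encoding the filament-severing cofilin, was at 672 to 774 FPKM in the 3 and at 929 to 1066 FPKM in the other 6. Pfn1, encoding the monomer-binding profilin, was at 574 to 704 FPKM and 954 to 1085 FPKM. Actn4, encoding the crosslinker α-actinin 4, was at 67.0 to 83.4 FPKM and 106 to 124 FPKM. Ccn1, a secreted matrix protein under SRF and YAP control, was at 4.28 to 5.59 FPKM and 10.8 to 15.4 FPKM. Among the 8 genes that entered the test, 2 (Actb and Tpm1) had their 3 lowest values in these libraries, which is 25%. Apart from Cfl1 and Actn4, the genes of these lists in this paragraph were named after their values were seen.

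**Figure D3:**
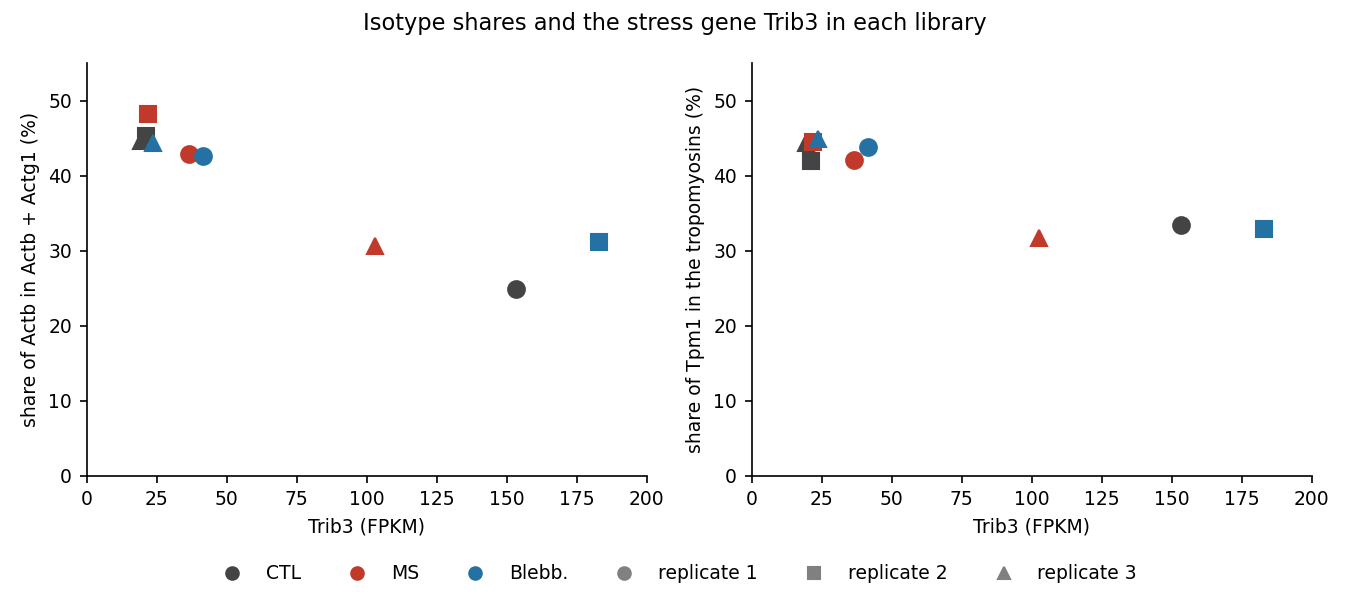
Share of Actb in both actins (left) and of Tpm1 in the tropomyosins (right), in percent, against the level of Trib3 in FPKM, with 1 point for each library, colored by group and shaped by replicate number. The 3 points at 103 to 183 FPKM of Trib3, from 3 different groups, have the lowest shares in both panels.

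The question of the study was how cyclic straining and the inhibition of myosin act on melanoma cells. For MS against CTL, none of the 8 genes tested passed an adjusted p of 0.05 in limma (percent of all 10109 genes called, 0), and none had an unadjusted p under 0.05 (0.158 percent of all genes). The median log2 fold change of the 8 genes was 0.048 and that of all genes was -0.0018. For Blebb. against MS, none passed the adjusted threshold (0 percent of all genes), and 2 of 8, Cnn2 and Srf, had an unadjusted p under 0.05 (1.25 percent of all genes). The medians were 0.0081 for the 8 genes and -0.0059 for all genes. For Blebb. against CTL, none passed (0 percent) and none had an unadjusted p under 0.05 (0.089 percent of all genes), with medians of 0.020 and -0.013. The comparisons share libraries and are not independent of each other.

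The width of the intervals differed between genes and says what could have been seen. For Actb the fold change of MS over CTL was 1.01, with a 95% interval from 0.503 to 2.03, and for Tpm1 it was 1.07, from 0.616 to 1.86. Differences of that size can therefore not be told from none in these data. Without the 3 libraries the log2 fold change of Actb was -0.15 in place of 0.016, and that of Tpm1 was -0.00031 in place of 0.098. Tpm4 also had a wide interval, with a fold of 1.29 for MS over CTL (0.698 to 2.40) and 0.696 for Blebb. over MS (0.375 to 1.29). Single libraries decided its size, since the log2 fold change for MS against CTL was 0.068 without MS replicate 1 in place of 0.37. For Blebb. against MS it was -0.22 without that library, -0.18 without Blebb. replicate 2 and -0.33 with the GC trend removed, in place of -0.52. For Tpm3 the interval was narrower, with a fold of 1.06 (0.846 to 1.32) for MS over CTL and 0.923 (0.739 to 1.15) for Blebb. over MS.

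Of the 8 genes, Srf had the largest part of its variance between the treatment groups, although it passed no adjusted test. Srf (ENSMUSG00000015605.6, GRCm38 chr17:46548329-46556175, minus strand) was at 18.5, 19.1 and 21.7 FPKM in CTL, at 14.7, 18.3 and 17.6 FPKM in MS, and at 24.4, 20.1 and 20.1 FPKM in Blebb. All 3 MS libraries were below every library of the other groups, and CTL and Blebb. overlapped. The group means were 19.8 ± 1.72 FPKM, 16.9 ± 1.90 FPKM and 21.5 ± 2.48 FPKM (SD, n = 3), and the groups accounted for 58.3% of its variance. The log2 fold change was -0.22 (SE 0.14) for MS against CTL, with an adjusted p of 1.0 in limma. For Blebb. against MS it was 0.34 (SE 0.14), a fold of 1.26 with a 95% interval from 1.02 to 1.57, with an unadjusted p of 0.0384 and an adjusted p of 0.897 in limma. Between Blebb. and CTL it was 0.11 (SE 0.14). Groups that did not overlap were found for 2 of the 8 genes in MS against CTL, Srf and Actg1, beside 3.17 percent of all genes tested, and for 2 of 8 in Blebb. against MS, Srf and Cnn2, beside 3.73 percent. In Blebb. against CTL it was 0 of 8, beside 2.08 percent of all genes.

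The lowest and the highest value of Srf lay in libraries that differed in base composition, and the part of the latter was not tested. Srf has 64.4% GC, the highest of the 10 genes. Its lowest value was in MS replicate 1 and its highest in Blebb. replicate 1, the libraries at both ends of the GC correlation. Between these ends the order did not hold. Srf was at 21.7 FPKM in CTL replicate 3 and 20.1 FPKM in Blebb. replicate 3, with GC correlations of -0.42 and -0.54. In CTL replicate 1, with a correlation of 0.45, it was at 18.5 FPKM. With the GC trend removed, the log2 fold change was 0.15 for Blebb. against MS (unadjusted p = 0.374 in limma) and -0.089 for MS against CTL. Within the 6 libraries that did not stand apart, it was 0.41 for Blebb. against MS (unadjusted p = 0.0494 in limma).

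Cnn2 and Cnn3, the calponins found outside smooth muscle, had differences of opposite sign between MS and Blebb. Cnn2 (ENSMUSG00000004665.10, GRCm38 chr10:79988584-79996062, plus strand) was at 22.4, 22.7 and 28.7 FPKM in CTL, at 22.4, 23.7 and 19.6 FPKM in MS, and at 33.4, 25.6 and 26.8 FPKM in Blebb. The 3 Blebb. libraries were above the 3 MS libraries. The log2 fold change of Blebb. against MS was 0.36 (SE 0.15), a fold of 1.29 with a 95% interval from 1.01 to 1.64, with an unadjusted p of 0.0420 and an adjusted p of 0.897 in limma. With the GC trend removed it was 0.28 (unadjusted p = 0.0997 in limma). Cnn3 (ENSMUSG00000053931.11, GRCm38 chr3:121426497-121458207, plus strand) was at 106, 107 and 126 FPKM in CTL, at 155, 101 and 134 FPKM in MS, and at 92.9, 98.5 and 112 FPKM in Blebb. The groups overlapped, and the log2 fold change of Blebb. against MS was -0.34 (SE 0.17, unadjusted p = 0.0701 and adjusted p = 0.897 in limma), and -0.21 without MS replicate 1. In the longest transcript of Cnn3, 14.8% of the stretches of 50 bases were shared with 2 other genes, and in that of Cnn2 none were.

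The share of Cnn2 in the sum of both calponins was 17.5%, 17.5% and 18.5% in CTL, 12.6%, 18.9% and 12.8% in MS, and 26.4%, 20.6% and 19.3% in Blebb. All 3 Blebb. libraries were above all the others. The means were 17.8 ± 0.600% in CTL, 14.8 ± 3.61% in MS and 22.1 ± 3.78% in Blebb. (SD, n = 3). The difference was 7.34 percentage points for Blebb. against MS and 4.29 points for Blebb. against CTL, with p = 0.1 in both by the two-sided exact permutation test, the smallest value possible, so that the design cannot reach 0.05. With the GC trend removed the differences were 5.64 and 3.28 points, and without Blebb. replicate 1 they were 5.19 and 2.13 points. This was 1 of 5 shares compared in 3 ways, 15 tests in all.

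Actg1 was the remaining gene with a CArG box among those searched, which did not include Actb. Actg1 was lower in every MS library than in every CTL library, by a log2 fold change of -0.14 (SE 0.14, adjusted p = 1.0 in limma). Its means were 1185 ± 65.0 FPKM in CTL and 1073 ± 56.9 FPKM in MS (SD, n = 3). In Blebb. the mean was 1240 ± 198 FPKM, and the log2 fold change against MS was 0.20 (SE 0.14). Without Blebb. replicate 1, the highest library, it was 0.072. Tagln2, encoding transgelin 2 (ENSMUSG00000026547.15, GRCm38 chr1:172500047-172507380, plus strand), was at 0.279, 0.731 and 0.724 FPKM in CTL, at 1.02, 0.994 and 0.517 FPKM in MS, and at 0.876, 0.823 and 0.971 FPKM in Blebb. Blebb. and CTL did not overlap, with p = 0.1 in the exact permutation test, the smallest possible, and p = 0.3 for MS against CTL. The lowest values of CTL and of MS were in CTL replicate 1 and MS replicate 3. Tpm2 (ENSMUSG00000028464.16, GRCm38 chr4:43514711-43523765, minus strand), a tropomyosin best known from muscle, was listed at 0 in all but 1 library, as given above. Of 8 further actins, calponins and transgelins none reached 1 FPKM on average, Acta2, Actc1 and Actbl2 were listed at 0 in all libraries, and the highest value was 0.733 FPKM for Tagln, encoding transgelin. Acta1, Actg2, Cnn1 and Tagln3 lay below that. Such values may not show a lack of expression, since Tmsb4x, a thymosin gene that most cells express strongly, was also listed at 0 in 5 of the 9 libraries and at most at 0.0514 FPKM in the others, while its relative Tmsb10 was at 568 to 855 FPKM. No read counts were used that could tell a failed estimate from an absent transcript.

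**Figure D4:**
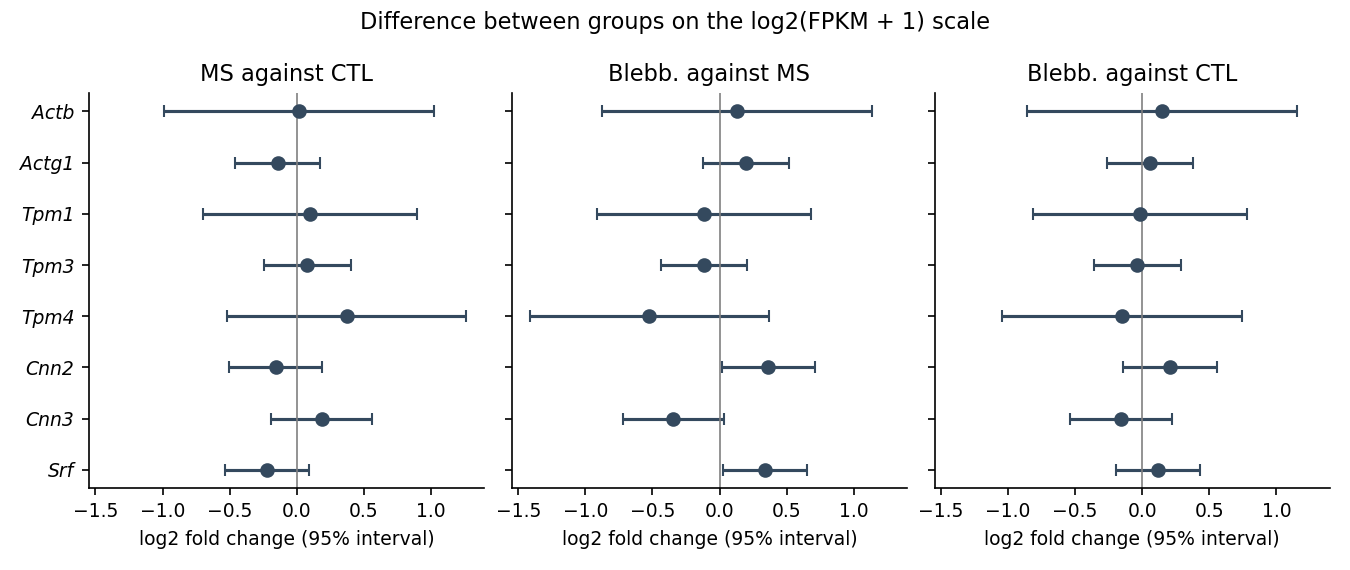
Log2 fold change on the log2(FPKM + 1) scale (points) with the 95% interval of the limma fit (bars) for the 8 genes tested, in MS against CTL (left), Blebb. against MS (middle) and Blebb. against CTL (right). The intervals of Actb, Tpm1 and Tpm4 are the widest, and those of Cnn2 and Srf in Blebb. against MS, the only ones that do not cross 0, start at 0.016 and 0.022.

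The cofactors of SRF were expressed at low to moderate levels. Mrtfa, whose protein senses free actin, was at 8.50 to 11.9 FPKM, and Mrtfb was at 2.37 to 4.59 FPKM. The ternary complex factors Elk1, Elk3 and Elk4 were at 11.8 to 21.2 FPKM, 14.3 to 19.0 FPKM and 2.09 to 5.44 FPKM. Scai, an inhibitor of the MRTF proteins, did not exceed 0.738 FPKM, and Myocd, the cofactor of smooth and heart muscle, was listed above 0 only in MS replicate 2, at 0.0027 FPKM. Of the 7 cofactors 5 were tested, and 0 rose and 0 fell in any of the 3 comparisons, with 0 at an unadjusted p under 0.05 in limma.

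The other genes of the actin system gave the same counts. Of 25 cytoskeletal targets of SRF and MRTF 18 were tested, of 9 immediate early targets 5, of 15 monomer and turnover factors 13, of 15 nucleators 14, and of 10 crosslinkers and tropomodulins 7. In each list and each comparison 0 genes passed the adjusted threshold in limma and 0 had an unadjusted p under 0.05. The median log2 fold change of the cytoskeletal targets was -0.076 for MS against CTL, with 13 of 18 genes below 0, and 0.11 for Blebb. against MS, with 12 of 18 above 0. Over all genes the medians were -0.0018 and -0.0059, with 50.5% below 0 in the first comparison and 49.0% above 0 in the second. Both comparisons use the MS libraries. For Blebb. against CTL the median of the targets was 0.0088, with 9 of 18 above 0 and 9 below, while 46.0% of all genes were above 0. For the monomer and turnover factors the medians were 0.13, -0.10 and -0.0035 in the 3 comparisons.

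Among the cytoskeletal targets, Myl6, a light chain of non-muscle myosin, had the highest mean and was at 504 to 647 FPKM. Fhl3, a LIM domain protein, was at 6.81, 7.96 and 6.78 FPKM in CTL, at 5.74, 5.91 and 5.76 FPKM in MS, and at 6.83, 8.91 and 6.49 FPKM in Blebb. Its MS libraries were the lowest 3, with a log2 fold change of 0.29 (SE 0.15) for Blebb. against MS. For Tln1, encoding talin, which ties integrins to actin, that value was 0.22 (SE 0.13).

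Among the immediate early targets, Mcl1, a survival factor, had the highest mean. Fos, a transcription factor induced within minutes of a stimulus, was at 15.2 FPKM in MS replicate 3 and at most 1.49 FPKM in the other 8 libraries. Its log2 fold change of 1.02 (SE 0.69) for MS against CTL thus came from 1 library, and without the 3 libraries it was -0.17. Nr4a1, another early gene, had a log2 fold change of -0.19 (SE 0.15). In MS replicate 3, which is 1 of the 3 libraries that stood apart with low Actb, Actb was at 476 FPKM and Actg1 at 1077 FPKM.

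In the remaining lists, the smallest p-values of each list in Blebb. against MS belonged to Capza2 and Capza1, subunits of the capping protein, with log2 fold changes of -0.66 (SE 0.36) and -0.42 (SE 0.23). The nucleators Vasp, an elongation factor, and Arpc2, a subunit of the Arp2/3 complex, had 0.25 (SE 0.13) and -0.32 (SE 0.19). Pls3, the bundling protein plastin 3, and Tmod3, which caps the slow end of the filament, had -0.83 (SE 0.38) and -0.56 (SE 0.33). In MS against CTL the values were 0.50 (SE 0.36) for Capza2, 0.32 (SE 0.23) for Capza1, 0.59 (SE 0.38) for Pls3, -0.18 (SE 0.16) for Evl, a relative of Vasp, 0.21 (SE 0.19) for Arpc2 and -0.13 (SE 0.13) for the actin-binding protein Lasp1. None of these passed. Capza2, Capza1, Pls3 and Tmod3 were each highest in MS replicate 1 and lowest in Blebb. replicate 2. With 1 library left out at a time, Blebb. against MS ranged from -1.015 to -0.39 for Capza2 and from -1.22 to -0.56 for Pls3. Arpc3, another subunit of the complex, was the nucleator with the highest mean, at 211 to 309 FPKM.

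Finally, the genes whose pattern was most like that of Actb, Tpm1 and Srf were read from the correlation of log2(FPKM + 1) over the 9 libraries among 7003 genes that averaged 5 FPKM or more. They are given as a description, since all points share the libraries, their base composition and the split described above. For Actb they were Tubb6, a β-tubulin, Lmnb2, a nuclear lamin, and U2af2, a splicing factor, all with r = 0.99, and over the 6 libraries that did not stand apart r was 0.97, 0.64 and 0.88. For Tpm1 they were Spag5 (0.99), Me2 (0.99) and Pa2g4 (0.99), with 0.94, 0.93 and 0.86 over the 6. For Srf they were Adpgk (0.98), Carm1 (0.97) and Cmtr1 (0.97), with 0.99, 0.98 and 0.99 over the 6. Actb and Tpm1 themselves had r = 0.89 over the 9 libraries and -0.15 over the 6, so that their likeness rests on the 3 libraries. Cnn2 and Srf had r = 0.83 over the 9 and 0.89 over the 6, and other pairs came as close over the 6. Tpm4 and Cnn3 had 0.80 over the 9 and 0.94 over the 6, and Actb and Srf had 0.31 and 0.93. Cnn3 and Srf went in opposite directions, with -0.70 and -0.72.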

How the data were processed

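RNA was extracted with TRIzol, libraries were made with the SMARTER mRNA-Seq kit, and the authors deposited 1 FPKM value per gene and library. The submitters' processing notes name GRCm38 and mm10, while the aligner, counter and annotation are not given in the sources used here. For CTL replicate 1 the value column carries the sample name in place of a unit and was read as FPKM. On the log2(FPKM + 1) scale, the 10109 genes that averaged 1 FPKM or more were tested with limma 3.58.1 in R 4.3.3, with 3 groups in 1 fit, a mean-variance trend and two-sided Benjamini-Hochberg adjusted p-values over all these genes. Exact permutation was used for shares and for genes below that minimum. The limma fit was also run on simulated data, and the permutation test on small made-up sets of values. Gene positions, GC content (longest transcript, 95.6% of the genes tested) and shared stretches came from GENCODE M21, promoters from RefSeq. The genes and lists were chosen with earlier results of these data known. Beside the 10 genes, the text names the SRF cofactors, the relatives of the same families, and in each other list the gene with the highest mean and the 2 with the smallest p in MS against CTL and in Blebb. against MS. Further genes of these lists were named outside this rule. They are Tmsb4x, Tmsb10 and genes with their 3 lowest or 3 highest values in the 3 libraries that stood apart. Alternatives were another pseudocount, other minimums, other scalings, no trend, only the groups compared, a replicate block, a library block, GC trend removal (loess, span 0.5) and leaving out libraries.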

Additional observations from a re-analysis of the deposited data

How the results depend on the processing

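No gene of the 8 passed an adjusted p of 0.05 in limma under any alternative, and their smallest adjusted p was 0.957 for MS against CTL, 0.45 for Blebb. against MS and 0.9 for Blebb. against CTL. Over all genes, 0 to 1 passed for MS against CTL and 0 to 1 for Blebb. against MS when 1 library was left out, and the 1 gene appeared without MS replicate 2. In Blebb. against MS, the unadjusted p of both Srf and Cnn2 was not under 0.05 without CTL replicate 2, MS replicate 1, MS replicate 3 or Blebb. replicate 1. The same held with a replicate block, with only the groups compared, and with the GC trend removed alone. With only the 6 libraries that did not stand apart it was 0.0494 for Srf and 0.076 for Cnn2 in limma. With the library block and the GC trend removed, 2 of the 8 genes were under 0.05 in Blebb. against MS. They were Cnn2 and Cnn3, and Srf was not among them. Over all alternatives the smallest unadjusted p of Cnn3 in limma was 0.0093 for Blebb. against MS and 0.047 for MS against CTL.

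The sign of some small differences turned. The log2 fold change of Actb for MS against CTL was -0.018 with quantile normalization. That of Tpm1 for Blebb. against CTL was 0.018 with median-of-ratios factors and 0.019 with the GC trend removed, also with the library block. With only the 6 libraries that did not stand apart, MS against CTL gave -0.15 for Actb, -0.00031 for Tpm1, -0.055 for Tpm3 and -0.17 for Fos, Blebb. against MS gave 0.0082 for Tpm1 and 0.0043 for Fos, and Blebb. against CTL gave 0.0079 for Tpm1. With the same 6 libraries the share of Actb was -1.50 points for Blebb. against CTL, the share of Tpm1 was 0.058 points for MS against CTL, the share of Tpm3 was -1.11 points for Blebb. against CTL, and Tagln2 was -0.084 FPKM for Blebb. against MS. With the GC trend removed the share of Tpm3 was -0.24 points for Blebb. against CTL. The cause was not tested.

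Leaving out 1 library at a time moved the log2 fold change for MS against CTL between -0.45 and 0.32 for Actb (without CTL replicate 1 and MS replicate 3) and between -0.20 and 0.36 for Tpm1 (without CTL replicates 1 and 3). For Blebb. against MS the ranges were -0.17 to 0.46 for Actb and -0.32 to 0.21 for Tpm1. For Blebb. against CTL they were -0.32 to 0.48 for Actb, -0.071 to 0.13 for Actg1, -0.32 to 0.31 for Tpm1, -0.11 to 0.058 for Tpm3 and -0.45 to 0.19 for Tpm4. The share of Actb ranged from -4.38 to 7.25 points for MS against CTL, -6.18 to 2.88 for Blebb. against MS and -5.60 to 5.17 for Blebb. against CTL. For Tpm1 these ranges were -3.78 to 3.34, -2.78 to 4.90 and -2.72 to 4.40 points, for Tpm3 -5.42 to 2.26, -3.37 to 5.44 and -4.79 to 3.70 points, and for Tpm4 -1.92 to 0.39 points for Blebb. against CTL. Tagln2 ranged from -0.12 to 0.13 FPKM for Blebb. against MS.

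The replicate numbers are shared by the groups in the labels. The correlation of deviations was -0.78 to 0.84 for libraries of the same number and -0.88 to 0.92 for others. The 3 libraries that stood apart carry different numbers and their split enters these correlations, so whether the numbers mark a pairing was not settled. With the replicate block the unadjusted p was 0.0715 for Srf and 0.0767 for Cnn2 in Blebb. against MS, at log2 fold changes of 0.34 and 0.36, and 0 genes passed the adjusted threshold in any comparison. With 3 libraries per group and an unknown depth, precision rests on the spread between libraries alone.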
